A study of Mus musculus with 8 samples.

Results

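Chromatin remodellers are ATP-driven machines that slide, evict or restructure nucleosomes, and they are grouped by their ATPase. The BAF complexes, built in mouse embryonic stem (ES) cells around SMARCA4, open chromatin at enhancers and promoters. The ISWI ATPase SMARCA5 spaces nucleosomes, and CHD4 is the ATPase of the NuRD complex, which also holds histone deacetylases. The mRNAs of 9 such genes were followed through RNA immunoprecipitation (IP): the ATPases Smarca4, Smarca5, Chd1 and Chd4, and the BAF subunits Smarcb1, Smarcc1, Smarcd1, Smarce1 and Arid1a. Members were all array probes named after 1 of these genes, 22 of 41174 probes and 9 of 27677 genes on the array. Of these, 19 probes, at least 1 for each of the 9 genes, were tested, as were 20623 probes on the whole array and 14694 genes. The others, probes 3 and 4 of Smarce1 and probe 3 of Chd1, were not well above background on every array of any group.

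The study asked which RNAs are bound by DAZL, a germ-cell protein that binds the 3′ untranslated regions of mRNAs. All samples came from 1 re-derived transgenic mouse ES cell line, Dazl-GFP, held in 1 µM PD0325901 (a MEK inhibitor), 3 µM CHIR99021 (a GSK3β inhibitor), LIF and 15% serum over irradiated fibroblast feeders. The groups were 3 native IPs with anti-GFP, 2 native IPs with anti-PABP1, which recognises a poly(A) tail binding protein, and 3 inputs of total RNA without antibody, each on a 1-colour Agilent array of 8 in all. The sources used here do not say whether GFP is fused to DAZL or reports the gene's activity, and no control-antibody IP was analysed here, so RNA held by beads or antibody is not separated from bound RNA.

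Levels below are log2 signal minus the array's 75th percentile, and a difference between groups is a difference of mean levels, ± limma's standard error (SE). An IP over input therefore compares a transcript's signal relative to that percentile in the recovered RNA with the same measure in total RNA. A probe is called higher or lower where its adjusted p, over all tested probes, is under 0.05. Nothing in the labels ties the arrays of a group to separate cultures, and the p-values then describe a spread that may be technical only. Between 41.5% and 52.6% of 43379 spots per array were well above background. Levels correlated at 0.973 to 0.992 within groups and 0.843 to 0.921 between them, across probes, which are not independent replicates. The arrays lay on 2 slides: slide 1 held GFP IP 2, PABP1 IP 1 and inputs 1 and 2, and slide 2 held GFP IPs 1 and 3, PABP1 IP 2 and input 3. A fit within 1 slide, or without 1 PABP1 IP array, leaves 1 array in a group. It measures no spread within that group, so only effect sizes are given for single probes. The median tested probe stood at −0.38 (GFP IP over input), 0.22 (PABP1 IP over input) and −0.52 (GFP IP over PABP1 IP), and the middle 50% of tested probes spanned −1.05 to 0.53, −0.69 to 1.07 and −1.45 to 0.71. Among probes called in the GFP IP over input, 38.2% were higher, against 64.3% when arrays were scaled to their median. That scaling gave 52.0% in place of 37.8% for the GFP IP over the PABP1 IP.

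Of the 8 ES cell markers (such as Pou5f1 and Nanog), all were well above background on every array. Their summed signal, in multiples of the array's 75th percentile, was 1487 to 1989 in GFP IPs, 1998 to 3895 in PABP1 IPs and 2261 to 4195 in inputs. By gene, 3 were called higher and 2 lower for the GFP IP over input (median −0.13), 2 and 2 for the PABP1 IP over input (median −0.052), and 5 and 1 for the GFP IP over the PABP1 IP (median 0.63), the last in the opposite direction to the sums. Of the 10 feeder fibroblast markers (such as Col1a1 and Thy1), none was at 0, and all were well above background on every array except input 1, where 9 were. Their sums were 63.7 to 98.3 in GFP IPs, 199.8 to 210.2 in PABP1 IPs and 148.4 to 191.0 in inputs. Against input, the GFP IP had 8 of them lower and 0 higher (median −1.14), and the PABP1 IP 1 lower and 3 higher (median 0.35). Against the PABP1 IP, the GFP IP had 9 lower and 1 higher (median −1.78). Of all tested genes, 21.0% were higher and 43.2% lower in the GFP IP than in input (median −0.52). These values were 34.2%, 25.2% and 0.25 for the PABP1 IP over input, and 23.4%, 47.5% and −0.68 for the GFP IP over the PABP1 IP. The feeder markers' 3 higher calls and median in the PABP1 IP over input lie near them. Fibroblasts also express the remodellers, and fewer cells of a type cannot be told apart from less RNA per cell; the feeders' part in the differences below was not tested.

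The remodeller mRNAs had no common direction in the GFP IP. By each gene's brightest probe, 5 of 9 genes were lower than input in the PABP1 IP, 1 higher and 3 not called. Of all tested genes, 25.2% were lower there and 34.2% higher. Between the antibodies, 7 of the 9 genes were higher in the GFP IP, 1 was lower and 1 was not called. The counts that follow are of probes, several of which share a gene. Relative to input, 4 of the 19 member probes were higher and 8 lower in the GFP IP, while 24.2% of all tested probes were higher and 39.1% lower. These counts lie close to the background, and the tally turned to 6 higher and 3 lower when arrays were scaled to their median. All 20623 tested probes turned likewise, from 4983 higher and 8068 lower to 7006 higher and 3887 lower. Likewise relative to input, 1 probe was higher and 11 were lower in the PABP1 IP, where all tested probes gave 34.5% higher and 25.9% lower. Between the antibodies, 15 were higher in the GFP IP than in the PABP1 IP and 2 lower, against backgrounds of 26.6% and 43.7%. The member probes' median differences were −0.54, −1.73 and 1.59 in these comparisons, and 9, 1 and 18 of the 19 lay above the median of all tested probes. Both comparisons with input use the same input arrays, and the comparison between the antibodies reuses the IP arrays, so the 3 sets of values are not independent.

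**Figure D1:**
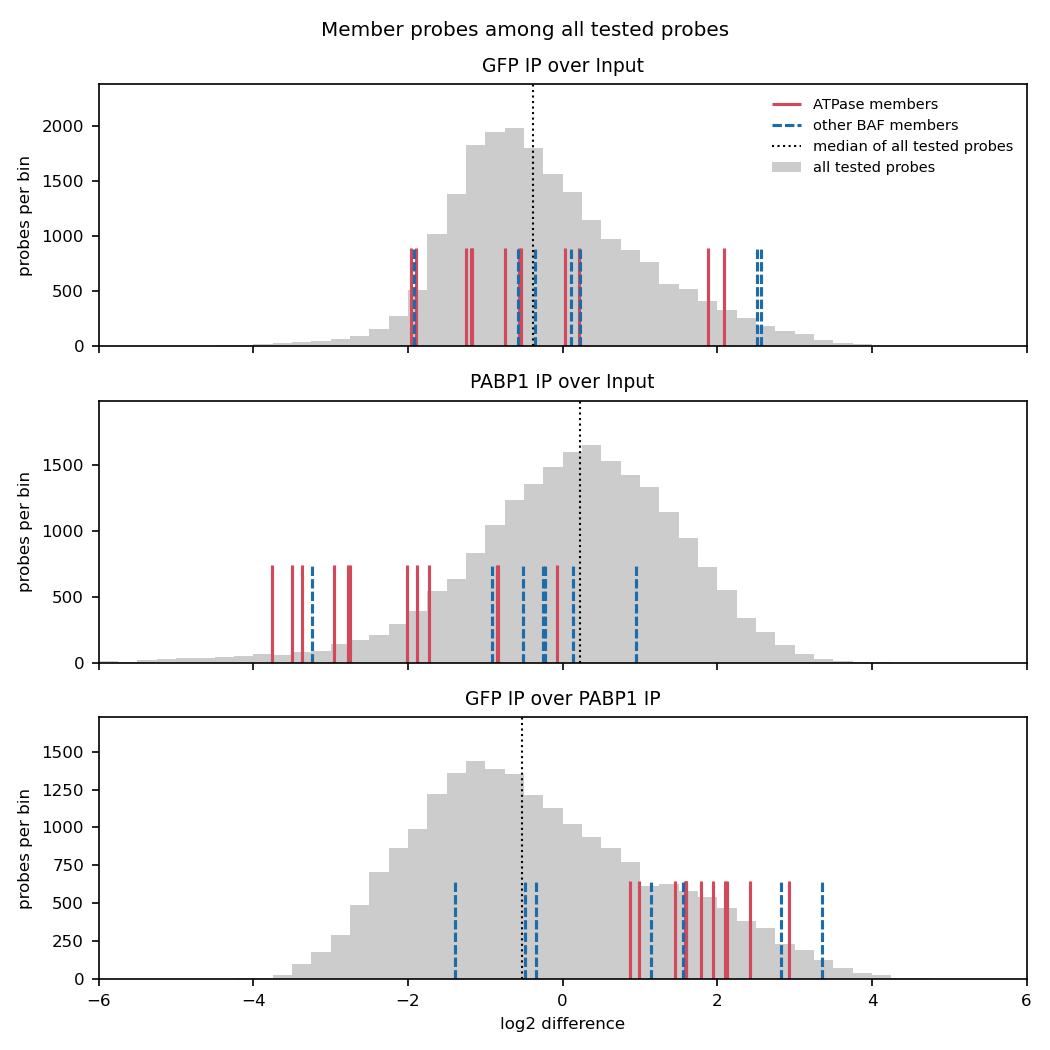
Grey bars count all 20623 tested probes by their log2 difference in each of the 3 comparisons, with the median dotted; red lines mark the 12 probes of the ATPase genes and dashed blue lines the 7 probes of the other BAF subunits, at a height with no meaning. With PABP1 over input all 12 ATPase probes lie left of the median of 0.22, and in the GFP IP over the PABP1 IP all 12 lie right of the median of −0.52.

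By role, the counts in the PABP1 IP were as follows. Of the 12 probes of the 4 ATPase genes, 10 were lower in the PABP1 IP than in input and 0 higher, with a median of −2.38. The 7 probes of the 5 other BAF subunits gave 1 higher and 1 lower, with a median of −0.25. Values of either role crossed over: Smarcc1 probe 1 was at −3.24 and Smarca5 probe 3 at −0.07. With GFP, 2 ATPase probes were higher than input and 5 lower (median −0.66), and 2 probes of other BAF subunits were higher and 3 lower (median 0.11). Over the PABP1 IP, 11 of the 12 ATPase probes were higher in the GFP IP and 0 lower (median 1.69), and 4 of the 7 others were higher and 2 lower (median 1.14). Of all tested probes, 34.5% were higher and 25.9% lower in the PABP1 IP than in input. These shares were 24.2% and 39.1% in the GFP IP over input, and 26.6% and 43.7% in the GFP IP over the PABP1 IP. For both roles, the counts in the GFP IP over input lie near them. Probes of 1 gene share a target, and the difference between the roles was not tested.

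Smarca4 encodes the ATPase of the BAF complexes of ES cells, and its mRNA fell with both antibodies, further with PABP1. Probe 1 read 5.51, 5.77 and 5.71 on the GFP IP arrays, 4.22 and 3.52 on the PABP1 IP arrays, and 7.84, 7.66 and 7.38 on the input arrays. The 3 groups did not overlap, with every GFP IP array between the PABP1 IPs and the inputs. It was 3.91-fold lower in the GFP IP than in input (−1.97 ± 0.21, adjusted p = 0.000227) and 13.5-fold lower in the PABP1 IP than in input (−3.76 ± 0.24, adjusted p = 2.8e-05). The GFP IP exceeded the PABP1 IP by 1.79 ± 0.24 (adjusted p = 0.000431).

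The other Smarca4 probes kept this order with smaller differences. Probe 2 read 4.79, 4.61 and 4.74 in GFP IPs, 3.76 and 3.71 in PABP1 IPs, and 5.62, 5.38 and 5.39 in inputs. It fell by 0.75 in the GFP IP over input (adjusted p = 0.00142) and by 1.73 in the PABP1 IP over input (adjusted p = 5.51e-05), and again no groups overlapped. Probe 3, the dimmest of the gene, read −2.36, −1.75 and −2.24 in GFP IPs, −3.02 and −4.12 in PABP1 IPs, and −1.54, −1.32 and −1.80 in inputs. Its GFP IP and input arrays overlapped (−0.56 ± 0.31, adjusted p = 0.145), while the PABP1 IP lay below all inputs (adjusted p = 0.00182) and below all GFP IPs (1.45 ± 0.35 for the GFP IP over the PABP1 IP, adjusted p = 0.0072). The GFP IP call of probe 2 against input ended with arrays scaled to their median (−0.22, adjusted p = 0.386) and with normexp background correction (−0.79, adjusted p = 0.253). Normexp, a model-based correction, also ended the calls of the PABP1 IP over input for probes 2 (−1.40, adjusted p = 0.063) and 3 (−0.75, adjusted p = 0.224), and those of the GFP IP over the PABP1 IP (0.61, adjusted p = 0.392, and 0.56, adjusted p = 0.343). The fall of probe 1 exceeded that of probe 2 by 1.22 in the GFP IP over input and by 2.03 in the PABP1 IP over input, with no overlap of the arrays.

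Smarcd1 and Arid1a had the greatest excess of the members in the GFP IP. SMARCD1 links BAF complexes to transcription factors, and its probe read 1.58, 1.37 and 1.42 in GFP IPs, −0.12 and −0.09 in PABP1 IPs, and −1.03, −1.11 and −1.04 in inputs. No groups overlapped, and the values within a group lay close together. The mRNA was 5.71-fold higher in the GFP IP than in input (2.51 ± 0.11, adjusted p = 1.48e-05), above 97.4% of all tested probes. Smarcd1 was also the only member called higher in the PABP1 IP over input (0.95 ± 0.13, 1.94-fold, adjusted p = 0.000491), which left it 2.95-fold higher in the GFP IP than in the PABP1 IP (adjusted p = 3.97e-05). With normexp the PABP1 IP over input was 0.36 and not called (adjusted p = 0.504).

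Arid1a encodes the DNA-binding subunit that defines the canonical BAF complex. Its probe read 3.80, 3.89 and 3.91 in GFP IPs, 0.99 and 1.10 in PABP1 IPs, and 1.35, 1.30 and 1.24 in inputs. All GFP IP arrays stood far above both other groups, whereas the PABP1 IPs lay slightly below the inputs. The GFP IP was 5.94-fold higher than input (2.57 ± 0.11, adjusted p = 1.38e-05) and 7.08-fold higher than the PABP1 IP (2.82 ± 0.12, adjusted p = 1.14e-05). The PABP1 IP over input was not called (−0.25 ± 0.12, adjusted p = 0.105), but was called lower with the 75th percentile taken over detected probes (−0.51, adjusted p = 0.00849) and with the median difference of all probes set to 0 (−0.48, adjusted p = 0.0108). Within slides 1 and 2 the GFP IP over input was 2.57 and 2.62 for Arid1a and 2.43 and 2.54 for Smarcd1; slide as a block gave 2.58 and 2.49.

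**Figure D2:**
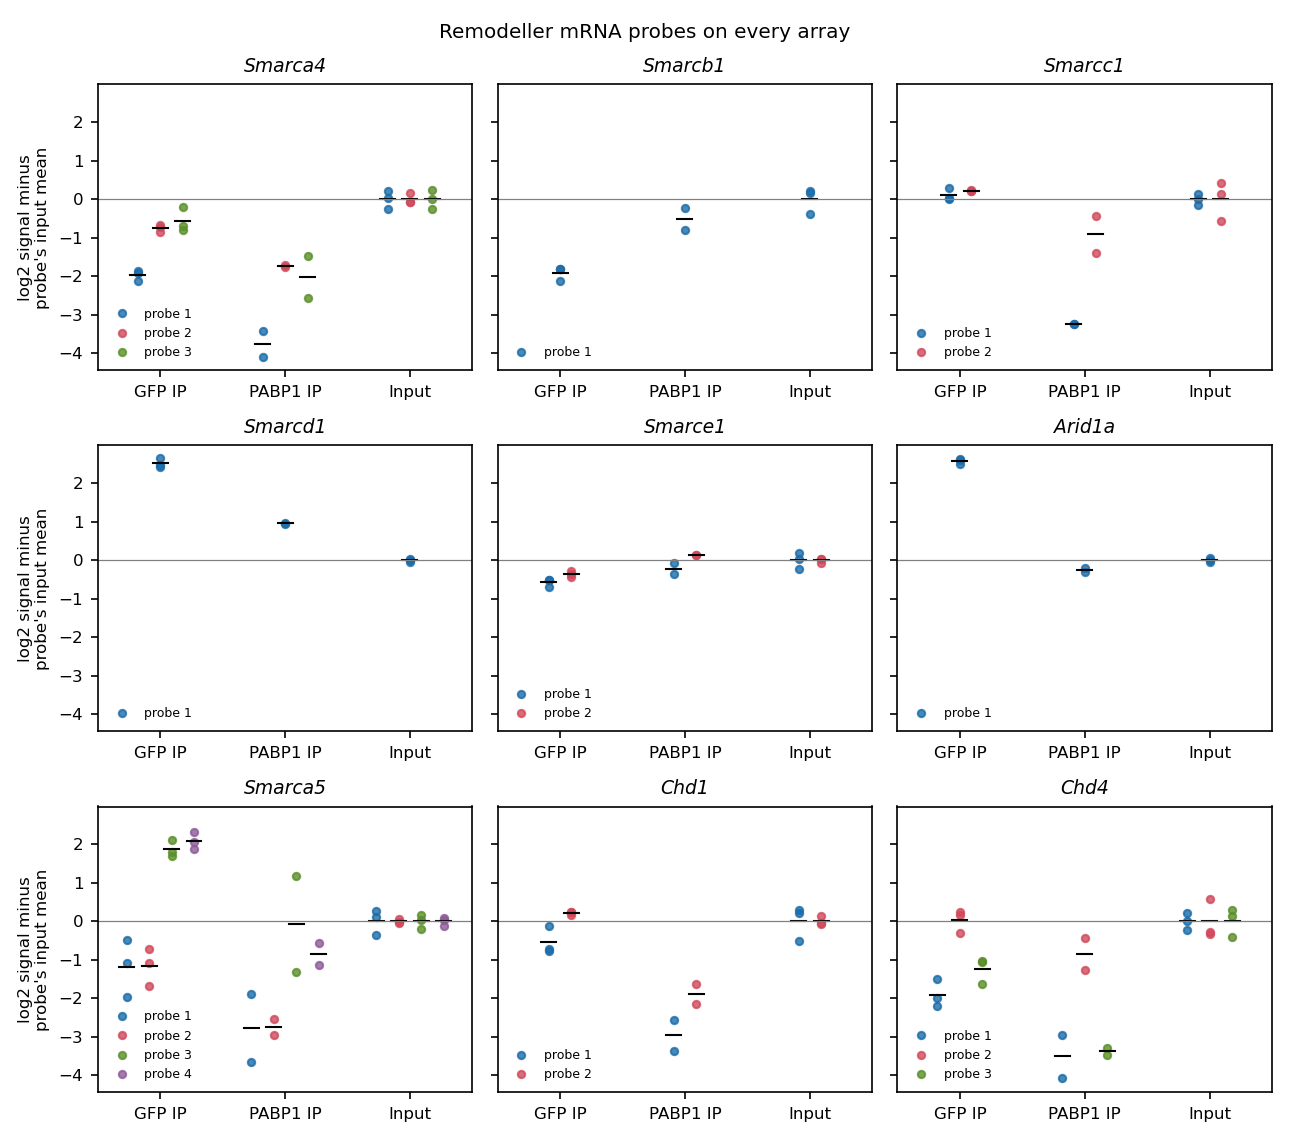
Each panel is 1 gene, with the GFP IP, PABP1 IP and Input arrays from left to right; the vertical axis is the log2 signal minus that probe's mean over the 3 inputs, each point is 1 array, colours separate probes and black bars are group means. Arid1a and Smarcd1 lie 2.57 and 2.51 above input in the GFP IP, while Smarca5 shows 1 pair of probes near −1.18 and −1.17 and another at 1.88 and 2.08.

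Smarcb1, a core BAF subunit and tumour suppressor, was 1 of the 2 members with a probe lower in the GFP IP than in the PABP1 IP, the other being Smarce1 (probe 2). Its probe read 4.57, 4.58 and 4.26 in GFP IPs, 6.15 and 5.58 in PABP1 IPs, and 6.60, 6.56 and 6.01 in inputs. The GFP IP arrays lay below all others, and 1 PABP1 IP array fell within the range of the inputs. Smarcb1 mRNA was 3.77-fold lower in the GFP IP than in input (−1.92 ± 0.23, adjusted p = 0.000321) and 2.63-fold lower than in the PABP1 IP (−1.40 ± 0.25, adjusted p = 0.00195). The PABP1 IP over input was −0.52 ± 0.25 (adjusted p = 0.114), but it was called when slide was a block (−0.45, adjusted p = 0.0338; −0.42 within each slide) and without input 3 (−0.71, adjusted p = 0.0354). Other scalings called it too, at −0.77 when detected probes set the percentile (adjusted p = 0.0223), −1.07 by quantile normalization (adjusted p = 0.00237) and −0.74 once the median difference was set to 0 (adjusted p = 0.0371), as did array weights (−0.68, adjusted p = 0.0231) and a replicate block (−0.67, adjusted p = 0.0341).

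Smarcc1, the scaffold on which the BAF core assembles, separated the antibodies most widely among members. Probe 1 read 6.75, 6.50 and 6.48 in GFP IPs, 3.24 and 3.22 in PABP1 IPs, and 6.61, 6.48 and 6.31 in inputs. GFP IP and input arrays overlapped (0.11 ± 0.13, adjusted p = 0.476), while both PABP1 IPs were far below. The GFP IP was called higher than input with scaling to the median (0.65, adjusted p = 0.0262), quantile normalization (0.61, adjusted p = 0.0018) and the median difference set to 0 (0.49, adjusted p = 0.016). The mRNA was 9.42-fold lower in the PABP1 IP than in input (−3.24 ± 0.15, adjusted p = 1.73e-05) and 10.2-fold higher in the GFP IP than in the PABP1 IP (3.35 ± 0.15, adjusted p = 1.14e-05).

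The second Smarcc1 probe is dim: it was well above background on 3 of 3 GFP IP, 1 of 2 PABP1 IP and 2 of 3 input arrays. It read −2.19, −2.19 and −2.20 in GFP IPs, −3.82 and −2.84 in PABP1 IPs, and −2.00, −2.98 and −2.27 in inputs. Its PABP1 IP over input was −0.91 ± 0.36 (adjusted p = 0.0596), and its GFP IP over PABP1 IP was 1.14 ± 0.36 (adjusted p = 0.0236). The probe was tested only because every GFP IP array had it well above background. It was thus selected by the group in which it was called higher, which favours that call. The PABP1 IP over input was called without input 2 (−1.19, adjusted p = 0.0206) and when slide was a block (−0.97, adjusted p = 0.0356), and was −1.40 without PABP1 IP 2. Without PABP1 IP 1 the GFP IP over the PABP1 IP was 0.65, and within slides 1 and 2 it was 1.63 and 0.65. The call for the GFP IP over the PABP1 IP ended without GFP IP 1 (adjusted p = 0.0558) or GFP IP 3 (0.0547). Normexp (0.36, adjusted p = 0.599), no filter on dim probes (adjusted p = 0.0568) and a replicate block (adjusted p = 0.0787) ended it as well. Array weights called the GFP IP higher than input (0.71, adjusted p = 0.0161), and the PABP1 IP was called lower than input when detected probes set the percentile (−1.17, adjusted p = 0.0271) and the median difference set to 0 (−1.14, adjusted p = 0.0276).

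Smarce1, a BAF subunit with an HMG DNA-binding domain, differed little between groups. Probe 1 read 3.38, 3.38 and 3.21 in GFP IPs, 3.82 and 3.52 in PABP1 IPs, and 4.09, 3.92 and 3.68 in inputs. Probe 2 read 0.66, 0.74 and 0.57 in GFP IPs, 1.16 and 1.14 in PABP1 IPs, and 1.04, 1.05 and 0.95 in inputs. For both, the GFP IP arrays lay below the inputs, by 0.57 ± 0.15 (adjusted p = 0.0138) and 0.36 ± 0.11 (adjusted p = 0.0216), which is near the median tested probe. Relative to that median the probes stood at −0.19 and 0.02, so the sign of probe 2 turns with the scaling. The PABP1 IP over input was not called for either probe (−0.22 and 0.13), though probe 1 was called lower when detected probes set the percentile (−0.48, adjusted p = 0.0264) and after quantile normalization (−0.49, adjusted p = 0.0213). Between the antibodies, probe 2 was lower in the GFP IP (−0.49 ± 0.12, adjusted p = 0.00801) and probe 1 was at −0.35 ± 0.17 (adjusted p = 0.103); relative to the median probe these became 0.03 and 0.17.

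Calls for Smarce1 in the GFP IP over input depended on single arrays and on the processing. That of probe 1 ended without GFP IP 3 (adjusted p = 0.0543), and that of probe 2 without GFP IP 1, GFP IP 3, input 1 or input 2 (adjusted p from 0.0527 to 0.0874). Within slides 1 and 2 the values were −0.62 and −0.39 for probe 1 and −0.31 and −0.34 for probe 2. Scaling to the median and normexp also ended the call of probe 1 (−0.038, adjusted p = 0.855, and −0.62, adjusted p = 0.412), and the percentile over detected probes and normexp that of probe 2 (−0.18, adjusted p = 0.162, and −0.23, adjusted p = 0.691). Without the filter on dim probes neither was called (adjusted p = 0.0604 and 0.129). Between the antibodies, the call of probe 2 ended with scaling to the median (−0.033) and the percentile over detected probes (−0.058). Besides the median difference, it also ended with normexp (−0.48) and without the filter on dim probes (−0.49). Probe 1 was called lower with a slide block (−0.31, adjusted p = 0.0427) and array weights (−0.42, adjusted p = 0.0403).

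Smarca5, the ISWI ATPase, gave opposite answers from different probes. Probe 1 read −1.12, 0.36 and −0.25 in GFP IPs, −1.05 and −2.82 in PABP1 IPs, and 0.95, 1.10 and 0.47 in inputs. Probe 2 read −1.31, −0.36 and −0.73 in GFP IPs, −2.59 and −2.17 in PABP1 IPs, and 0.32, 0.44 and 0.35 in inputs. For this pair every GFP IP array lay below every input, by 1.18 ± 0.53 for probe 1 (adjusted p = 0.0858) and 1.17 ± 0.25 for probe 2 (adjusted p = 0.00503).

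The other pair of Smarca5 probes ran the opposite way in the GFP IP. Probe 3 read 0.21, 0.10 and 0.52 in GFP IPs, −2.92 and −0.42 in PABP1 IPs, and −1.56, −1.80 and −1.43 in inputs. Probe 4 read 0.11, 0.54 and 0.29 in GFP IPs, −2.90 and −2.33 in PABP1 IPs, and −1.90, −1.73 and −1.69 in inputs. All GFP IP arrays stood above all inputs, 3.67-fold for probe 3 (1.88 ± 0.56, adjusted p = 0.0218) and 4.23-fold for probe 4 (2.08 ± 0.19, adjusted p = 0.000106). Between probes 1 and 4 the difference from input differed by 3.26, the widest gap among the 15 pairs of probes for 1 gene, with no overlap of the arrays. Within the pairs it was 0.01 (probes 1 and 2) and 0.21 (probes 3 and 4). With normexp no Smarca5 probe was called against input in the GFP IP: probe 2 was at −0.60 (adjusted p = 0.183), probe 3 at 0.83 (adjusted p = 0.0914) and probe 4 at 0.83 (adjusted p = 0.0593). Scaling to the median ended the call of probe 2 as well (−0.63, adjusted p = 0.0606). Where on the transcript or its isoforms these probes lie was not analysed here.

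With PABP1 the Smarca5 probes fell or were undecided. Over input, probe 1 was at −2.78 ± 0.59 (adjusted p = 0.00509), probe 2 at −2.75 ± 0.28 (adjusted p = 0.000149) and probe 4 at −0.85 ± 0.21 (adjusted p = 0.0105). Probe 3 had no settled direction, since its PABP1 IP arrays lay on either side of the inputs (−0.07 ± 0.63, adjusted p = 0.931). Without PABP1 IP 1 it was 1.18 and without PABP1 IP 2 −1.32, and within slides 2 and 1 it was 1.01 and −1.24. With 1 PABP1 IP array in each of these fits, neither direction could be tested. The call of probe 4 ended with normexp (−0.45, adjusted p = 0.315), and its value was −0.56 without PABP1 IP 1 and −0.65 within slide 2.

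Every Smarca5 probe was higher in the GFP IP than in the PABP1 IP, by 1.59 ± 0.59 for probe 1 (adjusted p = 0.0434), 1.58 ± 0.28 for probe 2 (adjusted p = 0.00168), 1.95 ± 0.63 for probe 3 (adjusted p = 0.0259) and 2.93 ± 0.21 for probe 4 (adjusted p = 2.67e-05). Probe 1 overlapped between the antibodies, and its call ended without any 1 of GFP IPs 2 and 3 and the 3 inputs, with adjusted p from 0.0534 to 0.106. Without PABP1 IP 2 its value was 0.71. The call of probe 3 ended without GFP IP 1 (adjusted p = 0.0567) or GFP IP 3 (0.0677), and within slides it was 3.02 and 0.79. Normexp ended the calls of probes 1, 2 and 3 (0.76, 0.67 and 0.78, adjusted p from 0.0975 to 0.186), and those of probes 1 and 3 also ended without the filter on dim probes, with a replicate block and with only the 2 groups compared (adjusted p from 0.0529 to 0.0997). Against input, the GFP IP call of probe 3 ended without GFP IP 1, GFP IP 3, input 1 or input 2 (adjusted p from 0.0546 to 0.0658). Probe 1 was instead called lower without GFP IP 2 (−1.53, adjusted p = 0.0489), with array weights (−1.42, adjusted p = 0.00225) and with only the 2 groups compared (adjusted p = 0.0366). Within slide 1 it was −0.67.

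CHD1 binds methylated histone H3 at active promoters and helps keep ES cell chromatin open. Probe 1 of Chd1 read 0.76, 1.35 and 0.72 in GFP IPs, −1.08 and −1.88 in PABP1 IPs, and 1.78, 1.69 and 0.97 in inputs. Probe 2 read 1.06, 1.00 and 1.07 in GFP IPs, −1.31 and −0.81 in PABP1 IPs, and 0.95, 0.74 and 0.78 in inputs. Both PABP1 IP arrays lay below all others for each probe, while the GFP IPs stayed near the inputs.

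The PABP1 IP was 7.77-fold below input for Chd1 probe 1 (−2.96 ± 0.35, adjusted p = 0.000315) and 3.70-fold below it for probe 2 (−1.89 ± 0.17, adjusted p = 9.91e-05). Relative to the PABP1 IP, the GFP IP was higher by 2.42 ± 0.35 (adjusted p = 0.00066) and 2.10 ± 0.17 (adjusted p = 4.44e-05). Neither probe was called in the GFP IP over input (−0.54 ± 0.32, adjusted p = 0.17, and 0.22 ± 0.15, adjusted p = 0.25). Probe 1 was called lower with a slide block (−0.30, adjusted p = 0.0206) and with array weights (−0.88, adjusted p = 0.00132). Within slides 1 and 2 it was −0.38 and −0.23. Probe 2 was called higher with scaling to the median (0.75, adjusted p = 0.0332), the median difference set to 0 (0.59, adjusted p = 0.0134) and array weights (0.31, adjusted p = 0.0128).

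Chd4, the NuRD ATPase, fell with both antibodies by 2 of its 3 probes. Probe 1 read 3.44, 4.13 and 3.65 in GFP IPs, 2.70 and 1.58 in PABP1 IPs, and 5.65, 5.86 and 5.41 in inputs. Probe 3 read −0.85, −0.25 and −0.27 in GFP IPs, −2.67 and −2.49 in PABP1 IPs, and 0.37, 0.92 and 1.08 in inputs. For both probes the groups stood in the same order, inputs above GFP IPs and GFP IPs above PABP1 IPs, without overlap.

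Against input, Chd4 probe 1 was 3.74-fold lower in the GFP IP (−1.90 ± 0.32, adjusted p = 0.00163) and 11.3-fold lower in the PABP1 IP (−3.50 ± 0.36, adjusted p = 0.000153). Probe 3 was 2.37-fold lower in the GFP IP (−1.25 ± 0.24, adjusted p = 0.00324) and 10.3-fold lower in the PABP1 IP (−3.37 ± 0.27, adjusted p = 5.91e-05). Compared with the PABP1 IP, the GFP IP was higher by 1.60 ± 0.36 (adjusted p = 0.00532) and 2.12 ± 0.27 (adjusted p = 0.000336). Within slides 1 and 2 the values of probe 3 in the GFP IP over input were −0.90 and −1.64. Its call there ended with scaling to the median (−0.71, adjusted p = 0.0659) and normexp (−0.79, adjusted p = 0.0931). Normexp also ended the call of probe 1 in the GFP IP over the PABP1 IP (1.14, adjusted p = 0.149).

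The remaining Chd4 probe, probe 2, gave no call. It read −0.13, −0.62 and −0.07 in GFP IPs, −1.56 and −0.73 in PABP1 IPs, and −0.63, −0.58 and 0.28 in inputs. GFP IP and input arrays overlapped (0.03 ± 0.33, adjusted p = 0.94), and both PABP1 IPs lay below all others. Its PABP1 IP over input (−0.84 ± 0.37, adjusted p = 0.0839) was called with a slide block (−0.96, adjusted p = 0.000418). It was −0.96 and −1.01 within slides 1 and 2, and −1.25 without PABP1 IP 2. The probe's GFP IP over PABP1 IP (0.87 ± 0.37, adjusted p = 0.0665) was called with a slide block (0.75, adjusted p = 0.00117) and without input 3 (adjusted p = 0.0334). It was 0.94 and 0.63 within slides 1 and 2, and 1.28 without PABP1 IP 2. The PABP1 IP over input was also called when detected probes set the percentile (−1.09, adjusted p = 0.0436) and the median difference set to 0 (−1.06, adjusted p = 0.039). The GFP IP over the PABP1 IP was called with these (1.30 and 1.39), scaling to the median (1.33, adjusted p = 0.0452), array weights (1.00, adjusted p = 0.0186) and only probes above background on all arrays (adjusted p = 0.0496). Array weights put the probe's GFP IP above input (0.41, adjusted p = 0.048).

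**Figure D3:**
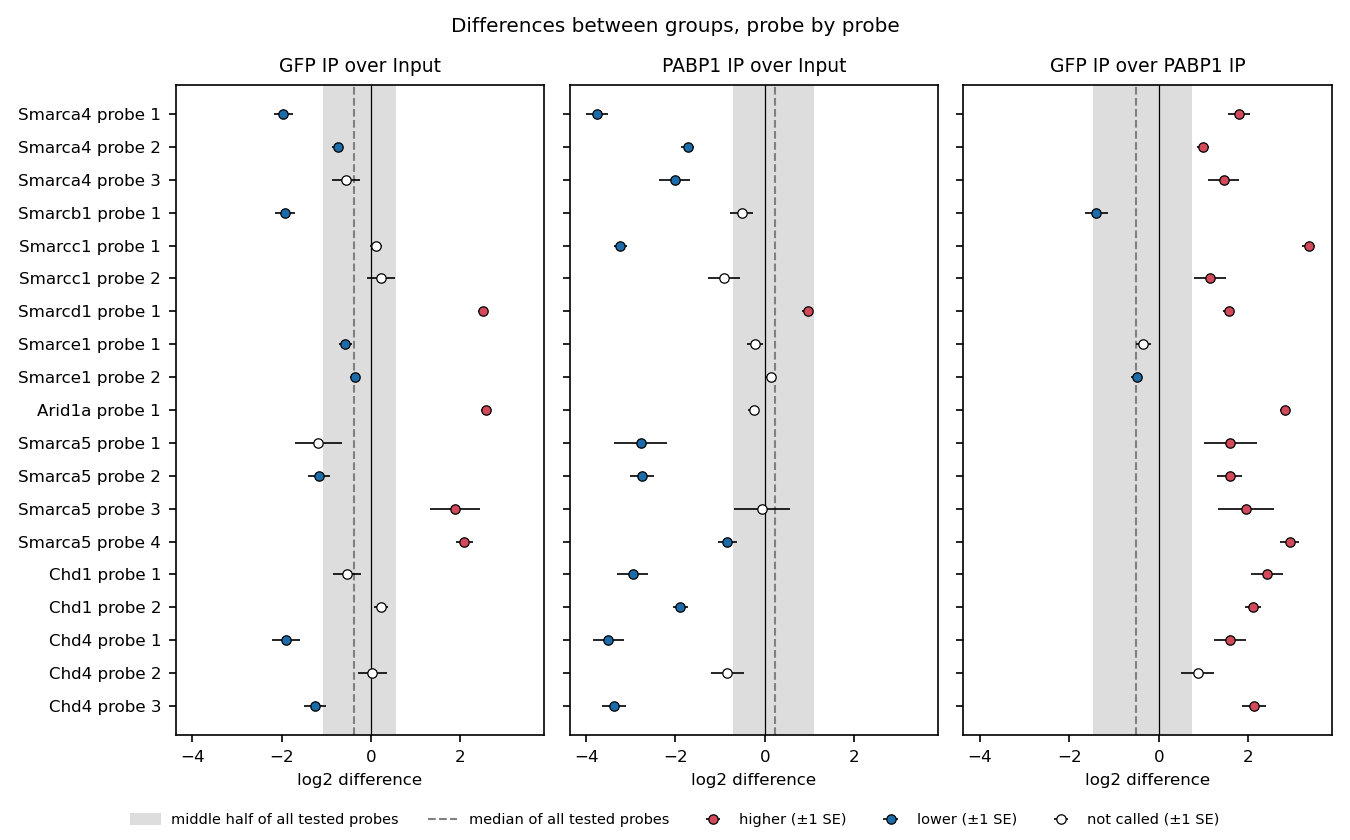
Each row is 1 of the 19 member probes and each panel 1 comparison; points are log2 differences with bars of 1 SE, red where called higher, blue where called lower and white where not called, and the grey band spans the middle 50% of all tested probes around their dashed median. On the right, for the GFP IP over the PABP1 IP, 15 probes are red and 2 blue (Smarcb1 and Smarce1 probe 2).

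Of the 15 pairs of probes for 1 gene, the arrays' differences did not overlap in 9 pairs for the GFP IP over input and 10 for the PABP1 IP over input, and in 4 for the GFP IP over the PABP1 IP. Over all 7426 pairs of tested probes that share a gene name, 53.4%, 61.4% and 55.9% did not overlap. The greatest gaps among the members' pairs were 3.26, 2.70 and 2.21. Whether the numbers of pairs differ was not tested.

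The calls over all 3 comparisons formed many patterns, whose shares among all tested probes were not counted. Of the 19 probes, 5 were lower in both IPs than in input and higher in the GFP IP than in the PABP1 IP (Smarca4 probes 1 and 2, Smarca5 probe 2, Chd4 probes 1 and 3). Another 5 were not called in the GFP IP over input, lower in the PABP1 IP than in input and higher in the GFP IP than in the PABP1 IP (Smarca4 probe 3, Smarcc1 probe 1, Smarca5 probe 1 and both Chd1 probes). Smarcd1 alone was called higher in all 3. Arid1a and Smarca5 probe 3 were higher in the GFP IP than in both other groups, with no call in the PABP1 IP over input. Smarcb1 and Smarce1 probe 2 were lower in the GFP IP than in both, also without that call. Smarca5 probe 4 was higher in the GFP IP than in both and lower in the PABP1 IP than in input. Smarcc1 probe 2 was called only between the antibodies, Smarce1 probe 1 only in the GFP IP over input, and Chd4 probe 2 in none.

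Other remodeller genes, by 1 probe per gene, were taken from 4 lists with 69 names, of which 66 were on the array and 63 tested. Against input, 20 were higher and 28 lower in the GFP IP, where the background by gene was 21.0% higher and 43.2% lower. The PABP1 IP over input gave 18 higher and 24 lower (background 34.2% and 25.2%). Between the antibodies, 29 were higher and 20 lower in the GFP IP (background 23.4% and 47.5%).

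The ISWI list, which holds SMARCA1 and the partner subunits of the ISWI ATPases, came closest to the ATPase members. Of its 10 tested genes, 1 was higher and 7 lower in the PABP1 IP than in input (median −1.94, against 0.25 for all tested genes), and 8 were higher and 1 lower in the GFP IP than in the PABP1 IP (median 1.61, against −0.68). Baz2b, a bromodomain partner of ISWI, read −0.40, 0.50 and 0.25 in GFP IPs, −4.13 and −3.45 in PABP1 IPs, and 0.98, 1.26 and 1.12 in inputs. Only 1 of the 2 PABP1 IP arrays showed it well above background, and it fell by 4.91 in the PABP1 IP over input (SE 0.31, adjusted p = 2.67e-05). Chrac1, a histone-fold subunit of the CHRAC complex, ran the other way: it was 3.98-fold higher in the PABP1 IP than in input (adjusted p = 0.000623) and 5.75-fold lower in the GFP IP than in the PABP1 IP (adjusted p = 0.000155). Of the ISWI list, 1 gene was higher in the GFP IP than in input (Pole3, 1.59 ± 0.19) and 4 lower, the most so Bptf, the large subunit of NURF (−1.14 ± 0.17, adjusted p = 0.00103), with a median of −0.57. That median lay near the −0.52 of all tested genes.

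Among 17 other BAF and PBAF genes, 9 were higher and 3 lower in the GFP IP than in input (median 0.34, against −0.52 for all tested genes). The extremes were Bcl7b (1.31 ± 0.16, adjusted p = 0.000413), well above background on 2 of 3 inputs, and Smarcd3, the paralogue of Smarcd1 found in heart and muscle BAF complexes (−1.50 ± 0.24, adjusted p = 0.00125). Smarcd3 read 2.37, 2.17 and 1.97 in GFP IPs, 4.09 and 3.56 in PABP1 IPs, and 4.05, 3.64 and 3.31 in inputs, so that it was lower in the GFP IP, where Smarcd1 was higher. With PABP1, 4 genes were higher than input and 5 lower (median 0.02, against 0.25), from Bcl7b (2.61 ± 0.18) to Arid2, the ARID subunit of PBAF (−2.41 ± 0.17). Arid2 read 4.02, 3.95 and 4.06 in GFP IPs, 0.56 and 1.00 in PABP1 IPs, and 3.07, 3.14 and 3.35 in inputs. It was 9.41-fold higher in the GFP IP than in the PABP1 IP (adjusted p = 1.17e-05), where the list gave 8 higher and 6 lower (median 0.19, against −0.68). Bcl7c had the greatest fall there (−1.86 ± 0.16).

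The CHD and NuRD list was divided. Of 19 tested genes, 7 were higher and 8 lower in the GFP IP than in input (median −0.01), and 6 were higher and 7 lower in the PABP1 IP than in input (median 0.06). The medians of all tested genes were −0.52 and 0.25. Chd3, the paralogue of Chd4, read 0.60, 0.75 and 0.79 in GFP IPs, −0.57 and −0.02 in PABP1 IPs, and 2.54, 2.77 and 3.06 in inputs. It was 4.22-fold lower in the GFP IP than in input (adjusted p = 0.000126). Chd9 was well above background on no PABP1 IP array, and was at least 7.79-fold lower there than in input (adjusted p = 0.000531) and, with 2 of 3 GFP IP arrays above background, at least 2.19-fold higher in the GFP IP than in the PABP1 IP (adjusted p = 0.00804). These bounds set the PABP1 IP at the dimmest signal well above background on each array. Chd9 was tested only because every input array had it well above background, which favours a lower call in the PABP1 IP. Hdac2, a NuRD deacetylase, was higher in the GFP IP than in input (2.71 ± 0.62, adjusted p = 0.0071), although just 1 of 3 inputs showed it well above background. Cdk2ap1, a small NuRD-associated protein, was 6.33-fold higher in the PABP1 IP than in input (adjusted p = 1.73e-05) and 4.65-fold lower in the GFP IP than in the PABP1 IP. Between the antibodies 9 genes of the list were higher in the GFP IP and 4 lower (median 0.37, against −0.68 for all tested genes).

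Of 17 tested INO80, SRCAP and TIP60 genes, 3 were higher and 13 lower in the GFP IP than in input (median −0.93), 7 higher and 5 lower in the PABP1 IP than in input (median 0.23), and 4 higher and 9 lower in the GFP IP than in the PABP1 IP (median −0.50). The medians of all tested genes were −0.52, 0.25 and −0.68, so in the last 2 comparisons the list lay near the background. Actr6, an actin-related SRCAP subunit, was 4.01-fold higher in the GFP IP than in input (adjusted p = 2.14e-05) and had the list's greatest excess over the PABP1 IP (1.40 ± 0.12). Trrap, the giant scaffold of TIP60, was the lowest of the list in both IPs over input (−2.23 ± 0.13 for GFP and −3.56 ± 0.15 for PABP1). Ino80c was highest in the PABP1 IP over input (1.91 ± 0.18), and Znhit1, an SRCAP subunit, was 7.25-fold lower in the GFP IP than in the PABP1 IP (adjusted p = 1.67e-05).

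List medians moved with the scaling. With arrays scaled to their median, the GFP IP over input gave 0.87 for the BAF and PBAF list, 0.53 for CHD and NuRD, −0.035 for ISWI and −0.39 for INO80, SRCAP and TIP60, and the GFP IP over the PABP1 IP gave 0.65 for BAF and PBAF and 0.83 for CHD and NuRD. The INO80, SRCAP and TIP60 median in the GFP IP over the PABP1 IP was −0.042 with that scaling, −0.067 with the percentile over detected probes and 0.0024 with quantile normalization. In the PABP1 IP over input it was −0.023 with the percentile over detected probes and −0.30 with quantile normalization, against 0.23.

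**Figure D4:**
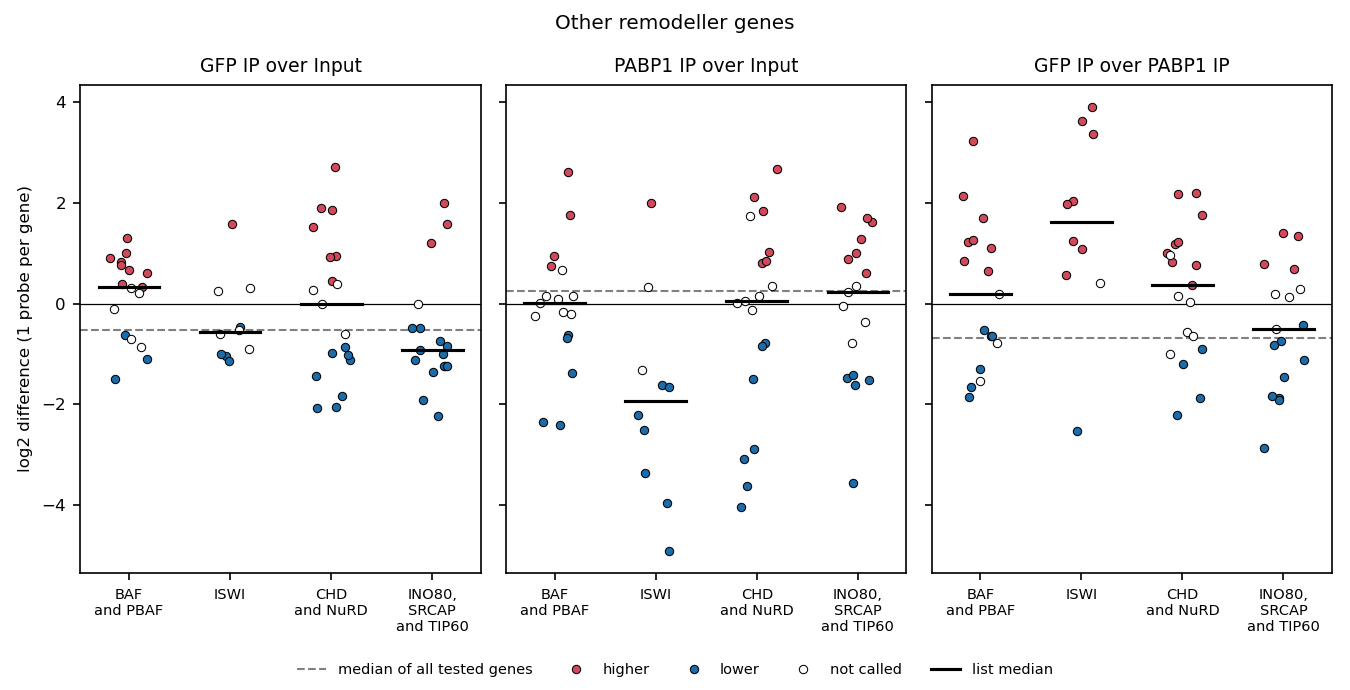
Points are the other remodeller genes, 1 probe per gene, in 4 lists for each of the 3 comparisons; the vertical axis is the log2 difference, red and blue are genes called higher and lower, white not called, black bars are list medians and the dashed line is the median of all 14694 tested genes. The ISWI list lies lowest in the PABP1 IP over input (median −1.94) and highest in the GFP IP over the PABP1 IP (median 1.61).

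For each ATPase gene's brightest probe, the tested gene with the nearest profile was sought among 14685 genes, by Euclidean distance over the 8 arrays. That of Smarca5 was Zfp536, at 0.87 on the log2 scale; it differed by −1.15 in the GFP IP and −3.02 in the PABP1 IP, each over input. The nearest to Smarca4, Chd1 and Chd4, at 0.52, 0.54 and 0.75, were probes without a gene symbol.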

How the data were processed

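The deposited intensity was made, per the file headers, with Feature Extraction 9.1.3.1 (protocol GE1-v5_95_Feb07, array design 014868), which subtracts background and gives dim spots a surrogate intensity. The deposited flags for signal well above background, saturation and outlier spots are values of another kind. The authors' deposited table of group intensities served as an alternative; the sources used here do not state its scaling.

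The deposited intensity was taken to log2, each array's 75th percentile was subtracted and spots of a probe were averaged; 32 probes flagged as outliers were dropped. A probe was tested, as its own row, if 1 or more groups had it well above background on all their arrays. Tests used R 4.3.3 and limma 3.58.1 (group means fitted to the 8 arrays by lmFit, then eBayes; residual degrees of freedom 5, prior 2.17; two-sided, Benjamini-Hochberg over all tested probes). Files were read with data.table (version 1.17.8), and figures drawn with matplotlib 3.10.9 in Python 3.11.15. The test was checked on simulated data. The number of arrays limits the precision.

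The members, lists, tests and alternatives were chosen with earlier results of these data known. All member probes are named; for each list and comparison, so are the called genes with the greatest positive and negative difference. For a listed gene, the probe with the highest mean stood for the gene. Of the tested genes 10732 were named by accession, 1464 by symbol and 783 by synonym through RefSeq's genes of assembly GRCm38.p6, and 1715 kept the array's name. The files name no genome build, so no coordinates are given. Probe and transcript sequences were not used here.

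Between groups, same-numbered arrays had deviations from their group means that correlated at −0.71 to −0.24 on different slides. On the same slide, same-numbered arrays gave 0.51 to 0.57. Arrays of different groups with other numbers gave 0.42 to 0.74 on 1 slide and −0.74 to −0.30 on different slides. These ranges overlap, and whether the numbers pair samples was not tested. Alternatives varied scaling, background correction, filters, slide and replicate blocks, array weights, samples, the probe rule and the authors' own values.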

Additional observations from a re-analysis of the deposited data

Results flagged for a closer look

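A probe that carries only a cDNA name on the array, and so was not a member, is assigned to Smarca5 by the authors' deposited table. Signal well above background was seen for it on 1 of the 3 inputs and on no IP array, outside the comparisons made above. Groups of 2 and 3 arrays are too small for a test of samples lying apart from their group.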

How the results depend on the processing

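Leaving out each GFP IP or input array in turn gave 3 to 4 member probes higher and 6 to 9 lower in the GFP IP over input, 1 higher and 11 to 12 lower in the PABP1 IP over input, and 12 to 15 higher and 2 lower in the GFP IP over the PABP1 IP. The calls for Arid1a, Smarcd1, Smarcb1, Smarca4 probe 1 and Chd4 probe 1 in the GFP IP over input kept their direction and threshold under all 22 alternatives that gave a test. So did those for Smarca4 probe 1, Smarcc1 probe 1, Smarca5 probes 1 and 2, both Chd1 probes and Chd4 probes 1 and 3 in the PABP1 IP over input. Some of those alternatives leave 1 array in a group, and there the threshold was met without a measured spread for that group.

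Background correction by normexp (offset 50) changed most: 2 higher and 3 lower in the GFP IP over input, 0 higher in the PABP1 IP over input (Smarcd1 0.36, adjusted p = 0.504), and 8 higher and 1 lower in the GFP IP over the PABP1 IP. Over all probes it left 863 higher and 1138 lower, 2336 and 967, and 1615 and 3846 called in these comparisons, against 4983 and 8068, 7113 and 5341, and 5478 and 9010. The cause was not tested. Scaling to the median gave 6 higher and 3 lower in the GFP IP over input, against 4 and 8, and array weights, whose estimate stopped before convergence, 7 higher and 11 lower. Over all tested probes, scaling to the median gave 7006 higher and 3887 lower there, and array weights 6253 and 10898, against 4983 and 8068. In the GFP IP over the PABP1 IP 1 was lower with scaling to the median, the 75th percentile over detected probes and no filter on dim probes. The same held with the median difference of all probes set to 0, an alternative chosen after seeing the data. By the mean of a gene's probes 2 of 9 genes were lower there, against 1 by the brightest probe.

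Signs turned as follows, some of them on called values. In the GFP IP over input, Smarce1 probe 2 was 0.18 with scaling to the median and 0.020 with the median difference set to 0; Smarcc1 probe 1 was −0.019 with normexp and −0.038 within slide 1; Smarcc1 probe 2 was −0.044 with normexp and −0.059 without input 2 (−0.059 to 0.43 over left-out arrays). Chd4 probe 2 was −0.049 with normexp, −0.21 with a slide block, −0.020 and −0.39 within slides 1 and 2, and −0.13 to 0.32 over left-out arrays, below 0 without GFP IP 1, GFP IP 3, input 1 or input 2. By the mean of its 4 probes Smarca5 was at 0.40, against −1.18 by its brightest probe. In the PABP1 IP over input, Smarca5 probe 3 was 0.0029 with scaling to the median, 0.042 with normexp, 1.01 within slide 2, 0.11 with array weights, and −1.32 to 1.18 over left-out arrays, above 0 without PABP1 IP 1 (1.18) or input 3 (0.011); Smarce1 probe 2 was −0.12 with the percentile over detected probes and −0.090 with the median difference set to 0, and Smarce1 probe 1 was 0.076 with normexp. In the GFP IP over the PABP1 IP, Smarce1 probe 1 was 0.11 with scaling to the median, 0.085 with the percentile over detected probes, 0.11 with quantile normalization and 0.17 with the median difference set to 0, which put probe 2 at 0.027.

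Whether the replicate numbers pair the arrays was not tested. A replicate block gave 4 higher and 8 lower, 1 and 12, and 12 and 2. Smarca5 probe 3 was then 0.030 in the PABP1 IP over input. A slide block gave 4 and 9, 1 and 14, and 16 and 3. Over all tested probes the replicate block gave 4937 and 7991, 6738 and 5241, and 5242 and 8330. The slide block gave 5675 and 9538, 8773 and 6416, and 6192 and 10586. With no block the counts over all tested probes were 4983 and 8068, 7113 and 5341, and 5478 and 9010. In the authors' deposited table, which matched 4 tested member probes by an accession of their own, the log2 ratio in the GFP IP over input was 3.07 for Arid1a, 3.03 for Smarcd1, −1.31 for Smarcb1 and 0.74 for Chd1 probe 2. The median of the authors' log2 ratios was 0.026 there, whereas the median tested probe stood at −0.38 in the fit used here, so the values have different baselines. Dim probes limit Smarcc1 probe 2, and the 3 untested probes have no level to compare.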
